A study of Mus musculus with 9 samples.

Results

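The 10 genes described here encode the principal enzymes that write and erase methylation on lysine 4 of histone H3 (H3K4). They were chosen by name as 6 methyltransferase genes (Kmt2a, Kmt2b, Kmt2c, Kmt2d, Setd1a and Setd1b) and 4 demethylase genes (Kdm1a, Kdm1b, Kdm5a and Kdm5b), out of 46078 gene identifiers counted in every library. Their mRNA was followed in EGFP-SSCs, a wild-type mouse spermatogonial stem cell line that carries EGFP, with 3 biological replicates at each of 3 times. The 0 h cells were in normal culture on mitomycin C-treated mouse embryonic fibroblasts, in a medium with GDNF, basic fibroblast growth factor and epidermal growth factor. The 24 h and 48 h cells had been mixed at equal number with testicular somatic cells of busulfan-exposed pups aged 3 to 7 days, and cultured in α-MEM with 10% KSR, BMP-4/7, retinoic acid, activin A, testosterone, FSH and BPE, and the cells bearing EGFP were then collected by flow sorting. All 9 libraries came from this 1 line, and no group kept the starting culture for 24 or 48 h. Time, medium, feeder layer and company of somatic cells therefore cannot be told apart in these comparisons, and the p-values measure the spread between libraries that the labels call biological replicates without naming separate cultures.

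H3K4 methylation marks active and poised regulatory DNA, with the trimethyl form at promoters and the monomethyl form at enhancers. The methyltransferases work as large complexes built on a shared core of WDR5, RBBP5, ASH2L and DPY30. KMT2A and KMT2B act at developmental and CpG-rich promoters, KMT2C and KMT2D place monomethylation at enhancers, and SETD1A and SETD1B make much of the promoter trimethylation. KDM1A and KDM1B are flavin-dependent enzymes that remove mono- and dimethylation, and the KDM5 enzymes are oxygen-dependent and remove di- and trimethylation. In the male germline Kmt2b is known to be needed in spermatogonial stem cells, and Kdm5b is known for its high expression in testis. These data hold mRNA alone, so no level of the mark or of any protein was measured here.

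Setd1b had the largest fold change of the 10 genes, and it was already reached at 24 h. Kdm5b was also lower and Kdm1a higher at both later times, while Kdm1b was lower at 48 h than at either earlier time. With edgeR's quasi-likelihood test and Benjamini-Hochberg adjustment over all genes, 3 of the 10 passed an adjusted p of 0.05 at 24 h against 0 h (1 higher, 2 lower), where 25.5% of all genes tested passed, 11.4% as higher and 14.2% as lower. At 48 h against 0 h 4 of the 10 passed (1 higher, 3 lower), where 31.6% of all genes passed, 13.0% as higher and 18.5% as lower. From 24 h to 48 h 1 of the 10 passed, as lower, where 21.3% of all genes passed, 8.61% as higher and 12.7% as lower. A share of 30.0%, 40.0% and 10.0% of 10 genes is close to those backgrounds, and no excess of change among the H3K4 enzymes was read from the counts. The median log2 fold change over the 10 genes was -0.33, -0.25 and -0.02 in the 3 comparisons, beside 0.01, 0.02 and 0.0 over all genes tested.

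**Figure D1:**
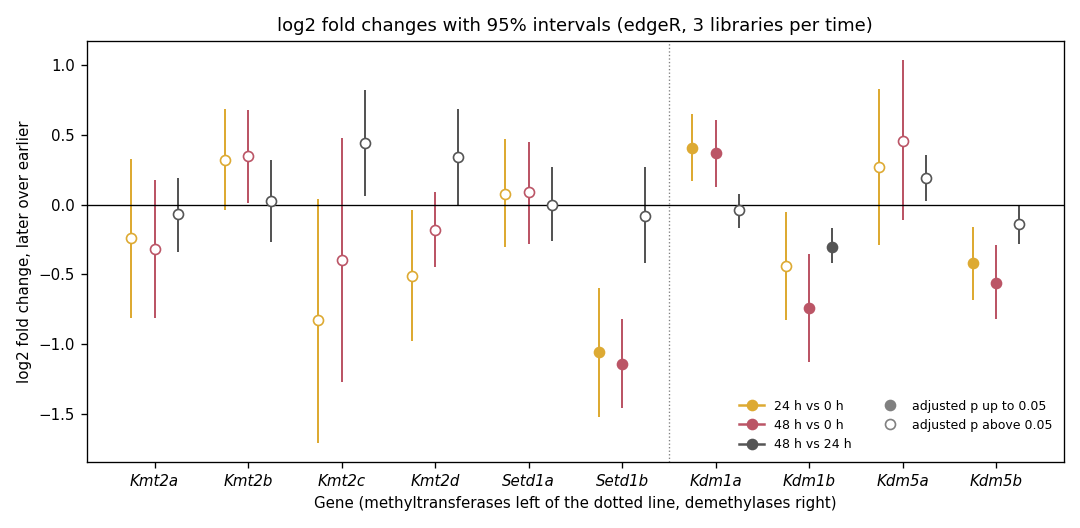
Each point is the log2 fold change of 1 gene (x axis) in 1 comparison (colour), with its 95% interval from edgeR on 3 libraries per time. Filled points passed an adjusted p of 0.05, with Setd1b lowest at -1.06 and -1.14 against 0 h, and open points did not.

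Among the methyltransferases, Setd1b (ENSMUSG00000038384, chr5:123142193-123168629, plus strand, GRCm38) encodes a SETD1-type enzyme that is best known for its role in oocytes. Its level in CPM (the share of a library's counts on the gene, scaled between libraries by TMM) was 27.8, 36.2 and 35.7 in the 3 libraries at 0 h, 17.6, 17.8 and 11.9 at 24 h, and 14.7, 16.0 and 14.5 at 48 h. Every library at 0 h lay above every later library, and the later times overlapped. Relative to 0 h the log2 fold change was -1.06 ± 0.20 (SE, n = 3 per time, adjusted p = 0.00711, edgeR) after 24 h, and after 48 h it was -1.14 ± 0.14 (adjusted p = 0.000871, edgeR), a fold of 0.48 and 0.454. The step from 24 h to 48 h was -0.08 ± 0.15 (adjusted p = 0.764, edgeR). Both calls against 0 h held in each of the 15 alternative analyses, leaving out each library included, with adjusted p-values between 4.09e-05 and 0.0338 at 24 h and between 1.74e-08 and 0.00987 at 48 h. In bulk libraries, fewer cells that use a gene and less RNA per cell cannot be told apart.

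Setd1a (ENSMUSG00000042308, chr7:127776670-127800122, plus strand) encodes the closely related enzyme of a separate complex that shares subunits with that of SETD1B. Its CPM were 101.8, 140.8 and 135.6 at 0 h, 140.2, 146.6 and 110.1 at 24 h, and 128.4, 151.7 and 120.9 at 48 h, so that the 3 times overlapped. Against 0 h its log2 fold changes were 0.08 for 24 h and 0.09 for 48 h, with 95% intervals of -0.30 to 0.47 and -0.28 to 0.45. These intervals leave room for moderate changes in both directions. The annotation puts a same-strand gene, Gm49388, over 51.8% of the exon bases of Setd1a, and the Setd1a count may depend on how reads in that stretch were assigned.

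Kmt2a (ENSMUSG00000002028, chr9:44803355-44881296, minus strand) encodes MLL1, a partner of menin. Its CPM were 425.2, 410.8 and 240.2 at 0 h, 337.3, 329.1 and 237.9 at 24 h, and 296.5, 278.8 and 289.8 at 48 h. Replicate 3 at 0 h lay below 5 of the 6 later libraries while the other 0 h replicates lay above all 6. The log2 fold changes of -0.24 and -0.32 against 0 h did not pass (adjusted p = 0.542 and 0.306, edgeR), and without 0 h replicate 3 the 48 h value was -0.51 (adjusted p = 0.00413, edgeR). Without 0 h replicate 1 it was -0.17 (adjusted p = 0.536, edgeR), and without 0 h replicate 2 it was -0.21 (adjusted p = 0.593, edgeR).

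Kmt2b (ENSMUSG00000006307, chr7:30568858-30588726, minus strand) encodes MLL2, the relative of MLL1 that is needed in spermatogonial stem cells. Its CPM were 227.9, 277.5 and 280.2 at 0 h, 364.6, 344.5 and 263.3 at 24 h, and 324.2, 383.5 and 289.8 at 48 h. All 3 libraries at 48 h lay above all 3 at 0 h, whereas at 24 h replicate 3 fell within the 0 h range. Neither its 24 h log2 fold change of 0.32 ± 0.16 (adjusted p = 0.182, edgeR) nor its 48 h value of 0.35 ± 0.14 (adjusted p = 0.11, edgeR) passed. In a fit offset by GC content and length of the transcript, the 48 h value was 0.45 and passed (adjusted p = 0.00553, edgeR). It also passed with scaling by library size alone, at 0.46 (adjusted p = 0.0493, edgeR), where the median over all genes was 0.1265. Without 48 h replicate 2 the 48 h value was 0.22 (adjusted p = 0.332, edgeR). Without 0 h replicate 1 it was 0.26 (adjusted p = 0.187, edgeR). In 12 of the 15 alternatives the 48 h value did not pass.

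Kmt2c (ENSMUSG00000038056, chr5:25271798-25498783, minus strand) encodes the enhancer methyltransferase MLL3 and had the widest spread at 0 h. Its CPM were 335.9, 236.0 and 109.3 at 0 h, 121.1, 155.4 and 103.0 at 24 h, and 177.9, 136.3 and 203.8 at 48 h. The coefficient of variation at 0 h was 50.0%, and replicate 3 at 0 h lay within the range of the 24 h libraries. Neither the log2 fold change of -0.83 ± 0.37 at 24 h (adjusted p = 0.153, edgeR) nor that of -0.40 at 48 h (adjusted p = 0.468, edgeR) passed. Without 0 h replicate 3 the values against 0 h were -1.14 at 24 h (adjusted p = 0.00488, edgeR) and -0.70 at 48 h (adjusted p = 0.0308, edgeR). Without 0 h replicate 1 they were -0.43 (adjusted p = 0.337, edgeR) and 0.0 (adjusted p = 0.999, edgeR). The step from 24 h to 48 h was a log2 fold change of 0.44 ± 0.17 (adjusted p = 0.0941, edgeR). This step passed in 3 of the 15 alternatives. It was 0.61 without 24 h replicate 2 (adjusted p = 0.0364, edgeR), 0.58 without 48 h replicate 2 (adjusted p = 0.0153, edgeR) and 0.43 without the expression filter (adjusted p = 8.61e-06, edgeR). In the other 12 it did not pass, with 0.30 without 48 h replicate 3 (adjusted p = 0.285, edgeR) and 0.22 with the GC content and length offsets (adjusted p = 0.26, edgeR).

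Kmt2d (ENSMUSG00000048154, chr15:98831669-98871204, minus strand) encodes MLL4, the other enhancer enzyme of this type. Its CPM were 217.4, 265.7 and 214.1 at 0 h, 192.1, 176.0 and 116.1 at 24 h, and 212.0, 207.9 and 196.3 at 48 h. Its libraries were separate in all 3 comparisons, lowest at 24 h and between the others at 48 h. It had log2 fold changes of -0.51 ± 0.20 at 24 h against 0 h (adjusted p = 0.11, edgeR), -0.18 ± 0.11 at 48 h against 0 h (adjusted p = 0.289, edgeR) and 0.34 ± 0.16 between 24 h and 48 h (adjusted p = 0.151, edgeR). None of the 3 passed. With the GC content and length offsets the 24 h value was -0.53 and passed (adjusted p = 0.0277, edgeR). DESeq2 passed the value between 24 h and 48 h, at 0.35 (adjusted p = 0.0447, DESeq2). Of the 15 alternatives, 3 passed at 24 h against 0 h and 2 between 24 h and 48 h. Without 24 h replicate 3, the lowest library, the 24 h value was -0.31 (adjusted p = 0.218, edgeR). The value between 24 h and 48 h was then 0.16 (adjusted p = 0.161, edgeR).

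**Figure D2:**
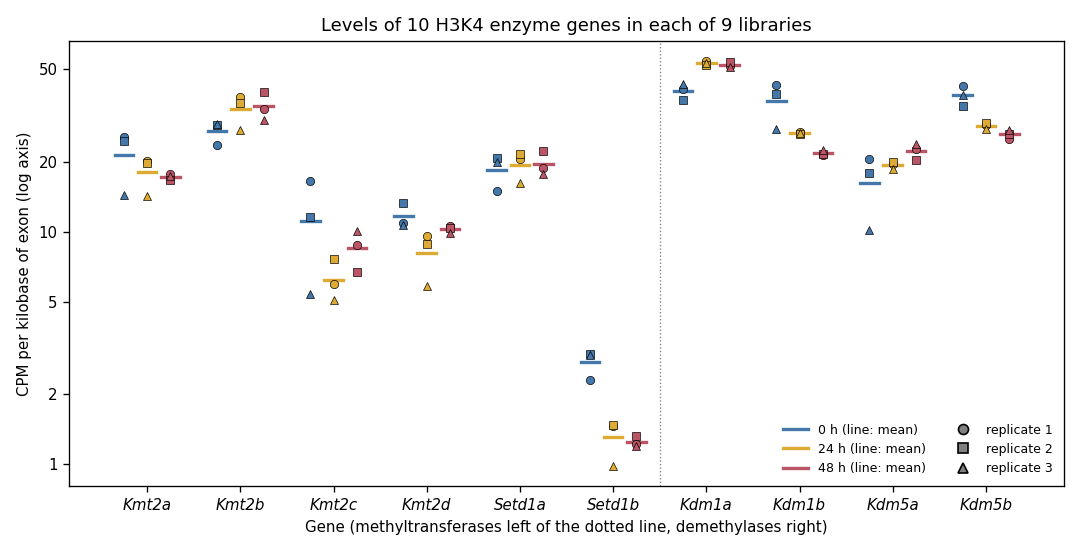
Levels in CPM per kilobase of exon (log axis) of the 10 genes in each of the 9 libraries, with colour for the time, marker shape for the replicate number and a line for the mean of 3 libraries. Setd1b lies lowest at every time, and Kmt2c, Kmt2a and Kdm5a show the widest scatter at 0 h.

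Replicate 3 at 24 h held the lowest value of its time for all 6 methyltransferase genes and for 8 of the 10 genes in all, the exceptions being Kdm1a and Kdm1b. The 7 members whose longest annotated transcript has at least 8000 bases were all lowest in this library. Over the 874 genes with such long transcripts the median deviation of this library from the mean of its group was -0.06 on the log2 scale, beside 0.02 over the other genes. At 0 h the corresponding medians for the long genes were 0.22, 0.08 and -0.30 in replicates 1, 2 and 3. The part of transcript length in the values of the members was not tested.

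Among the demethylases, Kdm1a (ENSMUSG00000036940, chr4:136550540-136602723, minus strand) encodes LSD1, the catalytic subunit of the CoREST complex. It was the 1 member that passed in the higher direction. Its CPM were 212.9, 192.1 and 223.9 at 0 h, 282.0, 269.6 and 276.8 at 24 h, and 267.8, 278.3 and 264.2 at 48 h. All later libraries lay above all 0 h libraries, and the later times overlapped. Kdm1a rose by 0.41 ± 0.10 on the log2 scale by 24 h (adjusted p = 0.0242, edgeR) and by 0.37 ± 0.10 by 48 h (adjusted p = 0.0318, edgeR), a fold of 1.33 and 1.29. From 24 h to 48 h the difference was -0.04, with a 95% interval of -0.17 to 0.08. The direction against 0 h held in all 15 alternatives and the call was lost in 6 of them at each time, where adjusted p-values over all alternatives reached 0.122 at 24 h and 0.121 at 48 h. Without 0 h replicate 2, the lowest of the 0 h libraries, the values were 0.34 (adjusted p = 0.122, edgeR) and 0.30 (adjusted p = 0.106, edgeR). Leaving out any 1 later library also ended the call, with values between 0.38 and 0.43 at 24 h and between 0.33 and 0.39 at 48 h.

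Kdm1b (ENSMUSG00000038080, chr13:47043499-47085279, plus strand) encodes LSD2, which is known for clearing H3K4 methylation at imprinted regions in oocytes. Its CPM were 235.5, 214.5 and 152.2 at 0 h, 148.0, 144.7 and 146.7 at 24 h, and 117.2, 119.2 and 124.0 at 48 h. The 3 times did not overlap, although replicate 3 at 0 h lay just above the 24 h libraries. Against 0 h it had a log2 fold change of -0.44 ± 0.17 at 24 h (adjusted p = 0.0944, edgeR), which did not pass, and -0.74 ± 0.17 at 48 h (adjusted p = 0.0137, edgeR), which did. From 24 h to 48 h it fell by 0.30 ± 0.06 on the log2 scale (adjusted p = 0.00709, edgeR), a fold of 0.814, and this was the only member to pass in that comparison. Without 0 h replicate 3 the 24 h value was -0.58 and passed (adjusted p = 0.00315, edgeR), whereas it was -0.31 without 0 h replicate 1 (adjusted p = 0.161, edgeR) and -0.39 without 0 h replicate 2 (adjusted p = 0.215, edgeR). The 48 h call against 0 h was lost without 0 h replicate 2 (-0.69, adjusted p = 0.0539, edgeR) and without each 48 h library (-0.71 to -0.76, adjusted p from 0.0532 to 0.0664, edgeR). The call between 24 h and 48 h was lost without 48 h replicate 1 (-0.26, adjusted p = 0.0627, edgeR) and when all 9 libraries shared 1 fit (-0.29, adjusted p = 0.286, edgeR). Exons of Kdm1b and Dek overlap on opposite strands over 505 bases, 9.19% of the exon bases of Kdm1b, and the sources used here do not state strand-specific counting, so reads there could belong to either gene.

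Kdm5b (ENSMUSG00000042207, chr1:134560171-134635285, plus strand) encodes the testis-rich demethylase JARID1B. Its CPM were 701.2, 579.3 and 641.1 at 0 h, 476.4, 488.3 and 459.2 at 24 h, and 414.7, 438.1 and 452.5 at 48 h, the highest CPM of the 10 genes in every library. The 3 times did not overlap. Kdm5b fell by 0.42 ± 0.11 on the log2 scale by 24 h (adjusted p = 0.0315, edgeR) and by 0.56 ± 0.11 by 48 h (adjusted p = 0.00855, edgeR), a fold of 0.747 and 0.679. Its further change from 24 h to 48 h was -0.14 ± 0.06 (adjusted p = 0.146, edgeR), and -0.24 with the GC content and length offsets (adjusted p = 0.0107, edgeR). At 24 h the call was lost without any of the 24 h libraries, with values of -0.39 to -0.43 and adjusted p-values of 0.108 to 0.114 (edgeR), and with scaling by library size alone, at -0.31 (adjusted p = 0.0853, edgeR). It was also lost without the expression filter, at -0.42 (adjusted p = 0.0525, edgeR). At 48 h it was lost without 48 h replicate 1, at -0.51 (adjusted p = 0.0569, edgeR).

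Kdm5a (ENSMUSG00000030180, chr6:120364124-120444574, plus strand) encodes JARID1A, first described as a retinoblastoma-binding protein. Its CPM were 291.4, 253.3 and 144.3 at 0 h, 276.8, 283.9 and 264.7 at 24 h, and 321.4, 289.4 and 339.7 at 48 h. The 48 h libraries lay above the 24 h libraries, and the 0 h libraries overlapped both later times. Its log2 fold changes were 0.27 ± 0.24 at 24 h (adjusted p = 0.468, edgeR) and 0.46 ± 0.24 at 48 h (adjusted p = 0.197, edgeR), and between 24 h and 48 h it was 0.19 ± 0.07 (adjusted p = 0.0904, edgeR). Without 0 h replicate 1 the 48 h value was 0.67 (adjusted p = 0.0473, edgeR), without 0 h replicate 3 it was 0.24 (adjusted p = 0.129, edgeR), and the offsets gave 0.15 (adjusted p = 0.182, edgeR). For the second day DESeq2 gave 0.21 (adjusted p = 0.0476, DESeq2), leaving out 48 h replicate 2 gave 0.25 (adjusted p = 0.0283, edgeR), and the offsets for GC content and length turned the value to -0.09.

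The libraries of the groups did not overlap for 5 of the 10 genes at 24 h against 0 h, where 43.4% of all genes tested did not overlap. The corresponding numbers were 6 of the 10 genes at 48 h against 0 h, beside 48.3% of all genes, and 4 of the 10 genes between 24 h and 48 h, beside 39.6%. At an unadjusted p under 0.05, edgeR gave 5, 5 and 3 of the 10 genes in the 3 comparisons. The share of all genes at that unadjusted p is not given here, so no excess is read from these counts. DESeq2 called 3, 4 and 3 of the 10 genes, beside 4732 of 20129, 5966 of 21441 and 3626 of 15502 over all genes it tested. Among the 6 methyltransferases 0 passed between 24 h and 48 h with edgeR, 1 had an unadjusted p under 0.05 and DESeq2 called 1.

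For 3 demethylase genes that passed in at least 1 comparison, the 250 bases before the RefSeq start were read (GRCm38.p6) to show the promoter sequence of a gene that rose beside those of genes that fell. Capitals mark matches on either strand. The motifs found there were the GC box, spelled GGGCGG, the CCAAT box, which its name spells, and the retinoic acid receptor half-site, spelled AGGTCA. The searched motifs do not overlap one another in these 3 windows. The windows lie at chr4:136602724-136602973 (minus strand) for Kdm1a, chr13:47043249-47043498 (plus strand) for Kdm1b and chr1:134559928-134560177 (plus strand) for Kdm5b.
Kdm1a: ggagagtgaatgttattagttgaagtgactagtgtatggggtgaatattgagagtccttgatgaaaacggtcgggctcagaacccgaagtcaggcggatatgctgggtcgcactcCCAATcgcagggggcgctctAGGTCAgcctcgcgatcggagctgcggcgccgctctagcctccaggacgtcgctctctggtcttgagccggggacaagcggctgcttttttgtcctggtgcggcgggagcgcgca
Kdm1b: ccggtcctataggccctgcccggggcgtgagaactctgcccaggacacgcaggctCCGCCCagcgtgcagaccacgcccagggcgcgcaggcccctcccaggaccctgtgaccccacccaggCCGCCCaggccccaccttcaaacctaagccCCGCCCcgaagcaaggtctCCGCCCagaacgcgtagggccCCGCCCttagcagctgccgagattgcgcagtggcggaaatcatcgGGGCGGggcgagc
Kdm5b: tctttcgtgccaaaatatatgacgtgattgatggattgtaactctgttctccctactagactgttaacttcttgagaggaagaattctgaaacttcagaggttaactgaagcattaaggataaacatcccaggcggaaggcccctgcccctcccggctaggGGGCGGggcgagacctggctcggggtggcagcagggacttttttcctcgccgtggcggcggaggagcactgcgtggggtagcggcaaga
The Kdm1a window held 1 CCAAT box and 1 half-site, the Kdm1b window held 6 GC boxes and the Kdm5b window held 1. Of 32851 such windows over all genes, 32.7% held a GC box, 33.8% a CCAAT box and 14.0% the half-site. Windows were found for 7 of the 10 members, and those of Kmt2a, Kmt2c and Kmt2d held 4, 12 and 4 GC boxes, while that of Setd1a held none of these motifs, nor a TATA box (TATAAA, 12.4% of windows) or an ETS core (CCGGAAG, 6.91%). The GC content of the windows was 59.2% for Kdm1a, 71.6% for Kdm1b, 54.4% for Kdm5b and 91.6% for Kmt2c, beside a median of 52.4% over all windows. A match is a string of letters and no measured binding.

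Per kilobase of exon, which allows levels of different genes to be compared, Kdm1a had the highest mean of the 10 genes at all 3 times and Setd1b the lowest. Kdm1a had 40.5, 53.3 and 52.2 CPM per kilobase on average at 0 h, 24 h and 48 h, and Setd1b had 2.75, 1.31 and 1.25. At 0 h the order after Kdm1a was Kdm5b (38.7), Kdm1b (36.5), Kmt2b (27.3), Kmt2a (21.5), Setd1a (18.6), Kdm5a (16.2), Kmt2d (11.7) and Kmt2c (11.2). Each of these neighbours overlapped the next at 0 h, and only Setd1b stood apart from the gene above it. In 0 h replicate 1 Kdm5b (42.4) lay above Kdm1a (41.1), and per kilobase of the longest transcript the 0 h mean of Kdm5b (73.5) was above that of Kdm1a (69.2).

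At 24 h Kmt2b had 33.8 CPM per kilobase and followed Kdm1a without overlap. Kdm5b (28.7), Kdm1b (26.7), Setd1a (19.5), Kdm5a (19.4), Kmt2a (18.1), Kmt2d (8.10) and Kmt2c (6.23) came next. Neighbours overlapped for Kmt2b and Kdm5b, Setd1a and Kdm5a, Kdm5a and Kmt2a, and Kmt2d and Kmt2c. At 48 h the order was Kdm1a, Kmt2b (34.6), Kdm5b (26.3), Kdm5a (22.4), Kdm1b (21.9), Setd1a (19.7), Kmt2a (17.3), Kmt2d (10.3), Kmt2c (8.51) and Setd1b. Kdm5a to Kmt2a overlapped stepwise at 48 h, as did Kmt2d and Kmt2c. With the longest transcript as length, 4, 4 and 6 of the 10 genes kept their place at 0 h, 24 h and 48 h.

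The summed level of the 6 methyltransferase genes was 93.0 ± 9.83 CPM per kilobase (SD, n = 3) for the 0 h group, 87.0 ± 14.9 for 24 h and 91.7 ± 5.53 for 48 h, and that of the 4 demethylase genes was 132.0 ± 13.8, 128.0 ± 1.58 and 123.0 ± 2.08. These sums overlapped between all times except the demethylase sums at 24 h and 48 h, which ran from 127.0 to 130.0 and from 121.0 to 125.0. Within the sums the mean shares of some genes differed between times, and these shares were not tested. Setd1b was 2.99% ± 0.565 of the methyltransferase sum (SD, n = 3) in 0 h cells, 1.49% ± 0.0765 after 24 h and 1.36% ± 0.0272 after 48 h. Kmt2b was 29.6% ± 5.16, 38.9% ± 1.02 and 37.7% ± 3.08, and its range of 25.3 to 35.3% at 0 h overlapped that of 34.9 to 41.0% at 48 h. Kdm1a was 30.9% ± 4.47 of the demethylase sum at 0 h, 41.6% ± 0.825 at 24 h and 42.5% ± 1.56 at 48 h, while Kdm1b was 27.5% ± 3.85, 20.8% ± 0.256 and 17.8% ± 0.218.

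Each member has a closest relative among the others, and the ratio within such a pair in 1 library does not depend on how libraries are scaled. The pair ratios were chosen after the data had been seen. The log2 ratio of Setd1a to Setd1b per kilobase was 2.70, 2.79 and 2.75 at 0 h, 3.82, 3.87 and 4.04 at 24 h, and 3.96, 4.08 and 3.89 at 48 h. It rose in every later library, on average by 1.16 at 24 h and 1.23 at 48 h, with SDs of 0.05 at 0 h and 0.12 and 0.10 later. These were the tightest replicates of any pair at 0 h.

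The log2 ratio of Kdm1a to Kdm1b per kilobase was -0.06, -0.07 and 0.64 at 0 h, 1.02, 0.98 and 1.00 at 24 h, and 1.28, 1.31 and 1.18 at 48 h. The 3 times did not overlap, and the mean differences against 0 h were 0.83 and 1.08. The log2 ratio of Kdm5a to Kdm5b was -1.04, -0.97 and -1.93 at 0 h, -0.56, -0.56 and -0.57 at 24 h, and -0.14, -0.37 and -0.19 at 48 h. Here too the 3 times did not overlap, and Kdm5b stayed above Kdm5a per kilobase in all 9 libraries. For both demethylase pairs replicate 3 at 0 h stood apart from the other 0 h libraries, toward the later times for Kdm1 and away from them for Kdm5. Between 24 h and 48 h the GC content and length offsets took the Kdm5 difference from 0.33 to 0.15 and the Kdm1 difference from 0.25 to 0.44.

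The pairs Kmt2a to Kmt2b and Kmt2c to Kmt2d overlapped in all 3 comparisons. The mean log2 ratio per kilobase of Kmt2a to Kmt2b was -0.38 ± 0.58 (SD, n = 3) in 0 h cells, -0.90 ± 0.04 after 24 h and -0.99 ± 0.24 after 48 h. Its difference between 24 h and 48 h was -0.09, and -0.42 with the offsets. That of Kmt2c to Kmt2d was -0.20 ± 0.80, -0.37 ± 0.28 and -0.30 ± 0.33. Over the 5 pairs and 3 comparisons the libraries did not overlap in 8 of 15. Over single genes 43.4%, 48.3% and 39.6% did not overlap in the 3 comparisons. The share over other gene pairs is not given here, so no excess is read from the 8 of 15. In each of the 8 the two-sided exact permutation test gave p = 0.1, the smallest that 3 against 3 allows, so that no pair could reach 0.05.

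**Figure D3:**
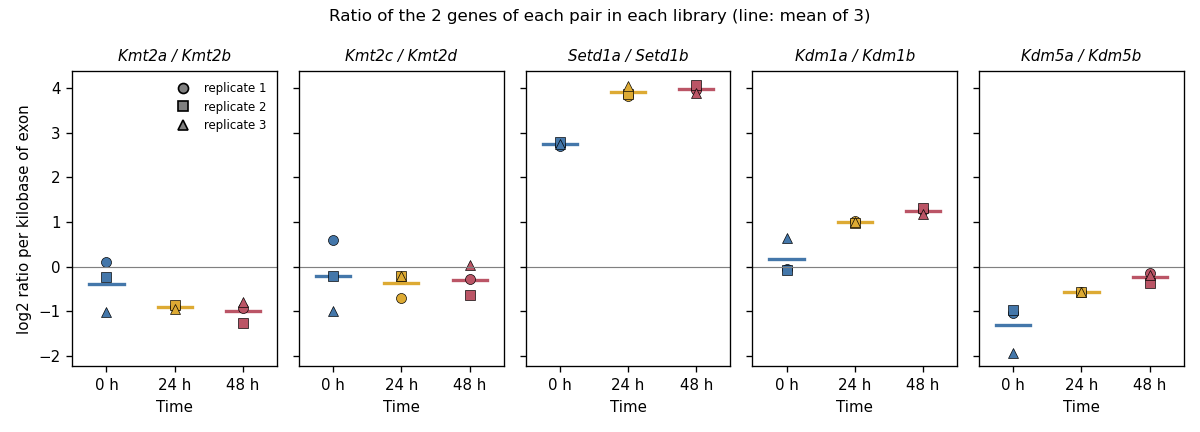
Each panel shows the log2 ratio, per kilobase of exon, of the genes of 1 pair in each library (points, marker shape for the replicate number) and the mean of 3 libraries (line) at 0 h, 24 h and 48 h. The Setd1a to Setd1b ratio goes from 2.75 to 3.91 and 3.97 on average, and both demethylase pairs move without overlap.

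The spread at 0 h went along in part with base composition. The GC content of the longest transcript ran from 43.3% (Kdm5a) to 59.1% (Kmt2b) among the members, beside a median of 49.8% over the genes that passed the filter. Of the 6 members below 52% GC, 5 were lower in 0 h replicate 3 than in replicate 1, Kmt2c by the most at -1.62 on the log2 scale, then Kdm5a at -1.01 and Kmt2a at -0.82. Kdm5b, of the same 47.6% GC as Kmt2c, differed by -0.13. Of the 4 members at 57% GC or more, 3 were higher in replicate 3, with differences of 0.30 to 0.41. Across the 10 genes Pearson's r between GC content and this difference was 0.76, a description over genes that share both libraries. The same libraries differed over all genes, with a median of -0.792 for genes of 40 to 44% GC and 0.424 for genes of 56 to 60% GC. With offsets for GC content and length, 6 of the 10 genes passed at 24 h against 0 h (1 higher, 5 lower), 6 at 48 h against 0 h (2 higher, 4 lower) and 2 between 24 h and 48 h (both lower). The same offsets passed 6369 of 17592, 7651 of 17755 and 3833 of 17499 genes over all genes tested. Without offsets these numbers were 4494, 5602 and 3732, so calls against 0 h became more frequent over all genes as well. Beside the as-deposited fit, Kmt2c, Kmt2d and Kdm1b were added at 24 h, and Kmt2a and Kmt2b at 48 h.

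**Figure D4:**
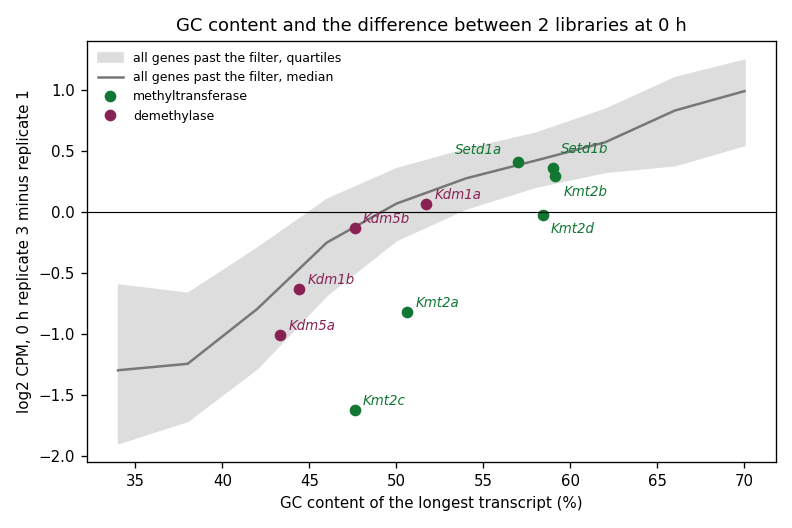
The difference in log2 CPM between 0 h replicates 3 and 1 (y axis) against the GC content of the longest transcript in percent (x axis), for the 10 genes (points) and all genes past the filter (line for the median, band for the quartiles). Kmt2c at -1.62, Kmt2a at -0.82 and Kmt2d at -0.02 lie below the band, and the demethylases lie within it.

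The partners of these enzymes were read as a list of 43 genes of H3K4 methylation, of which 42 were tested. Pagr1a, a subunit of the enhancer complexes, was not tested because its counts were too low. At 24 h against 0 h 6 passed (1 higher, 5 lower), or 14.3% beside 25.5% of all genes tested. At 48 h against 0 h again 6 passed (1 higher, 5 lower), or 14.3% beside 31.6%, and between 24 h and 48 h 11 (5 higher, 6 lower), or 26.2% beside 21.3%. The median log2 fold change over the list was 0.01, 0.05 and 0.01 in the 3 comparisons, beside 0.01, 0.02 and 0.0 over all genes tested. Of the shared core subunits, 0 of 4 passed with edgeR or DESeq2 at either time against 0 h, and at an unadjusted p under 0.05 edgeR gave 0 at 24 h and 1 at 48 h. On the second day 1 of the 4, Wdr5, fell by 0.22 on the log2 scale (adjusted p = 0.0278, edgeR). That call was lost with all 9 libraries in 1 fit (-0.21, adjusted p = 0.233, edgeR) and without any 1 of the 6 libraries other than 48 h replicate 2 (-0.19 to -0.22, adjusted p from 0.0571 to 0.158, edgeR).

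Among 10 partners of the KDM1 enzymes, 3 passed in each comparison, or 30.0% beside 25.5%, 31.6% and 21.3% of all genes. Zmym3, a zinc finger protein of the LSD1-containing complex, had 134.0, 136.0 and 143.0 CPM at 0 h, 542.0, 508.0 and 490.0 at 24 h, and 321.0, 348.0 and 345.0 at 48 h. It rose by 1.91 ± 0.10 on the log2 scale at 24 h (adjusted p = 3.03e-05, edgeR), the largest rise of the list, and fell by 0.61 ± 0.07 between 24 h and 48 h (adjusted p = 0.000495, edgeR). Phf21a, the subunit that reads unmethylated H3K4, had 87.1, 99.1 and 82.6 CPM at 0 h, 42.6, 50.1 and 44.4 at 24 h, and 42.7, 41.9 and 45.2 at 48 h. Its log2 fold change against 0 h was -0.96 ± 0.12 (adjusted p = 0.00127, edgeR) and -1.05 ± 0.11 (adjusted p = 0.000507, edgeR). Hmg20b, the HMG-box subunit, fell by 1.30 on the log2 scale at 48 h against 0 h (adjusted p = 0.00201, edgeR) and by 0.63 between 24 h and 48 h (adjusted p = 0.00161, edgeR), the latter lost with all 9 libraries in 1 fit (-0.62, adjusted p = 0.0598, edgeR).

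The other KDM5 genes of the mouse are the X-linked Kdm5c and the Y-linked Kdm5d. Kdm5c had 42.0, 51.0 and 52.2 CPM at 0 h, 25.6, 25.5 and 25.8 at 24 h, and 29.4, 32.9 and 28.2 at 48 h. Its log2 fold change against 0 h was -0.91 ± 0.12 (adjusted p = 0.00167, edgeR) at 24 h and -0.68 ± 0.13 (adjusted p = 0.0069, edgeR) at 48 h. Kdm5d had 31.7, 27.8 and 13.1 CPM at 0 h and between 22.7 and 29.5 in the later libraries, and passed in none of the 3 comparisons.

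Kdm6a encodes UTX, an H3K27 demethylase that is a subunit of the KMT2C and KMT2D complexes. Its CPM were 41.1, 32.5 and 14.7 at 0 h, 13.1, 12.6 and 12.4 at 24 h, and 18.8, 15.8 and 18.9 at 48 h. UTX mRNA had a log2 fold change of -1.20 ± 0.34 at 24 h against 0 h (adjusted p = 0.0381, edgeR) and 0.48 ± 0.10 between 24 h and 48 h (adjusted p = 0.0123, edgeR). The 24 h call was lost without 0 h replicate 1 (-0.87, adjusted p = 0.0633, edgeR), without 0 h replicate 2 (-1.11, adjusted p = 0.0992, edgeR) and without any 24 h library (-1.17 to -1.23, adjusted p from 0.112 to 0.127, edgeR), and with scaling by library size alone (-1.08, adjusted p = 0.0522, edgeR). With the GC content and length offsets the value between 24 h and 48 h was 0.27 and did not pass (adjusted p = 0.0693, edgeR), and with all 9 libraries in 1 fit it was 0.49 and did not pass (adjusted p = 0.398, edgeR).

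Among 12 readers of methylated H3K4, 1 passed at 24 h against 0 h, as lower (8.33% beside 25.5% of all genes), and 2 at 48 h, both lower (16.7% beside 31.6%). Between 24 h and 48 h 5 passed (3 higher, 2 lower), or 41.7% beside 21.3%. Ing2, a PHD-finger protein of an H3K4me3-binding deacetylase complex, had a log2 fold change of -0.74 ± 0.12 (adjusted p = 0.00366, edgeR) at 24 h and -1.21 ± 0.12 (adjusted p = 0.000402, edgeR) at 48 h against 0 h. Ing3, a PHD-finger protein of the TIP60 complex, rose by 0.51 ± 0.09 on the log2 scale between 24 h and 48 h (adjusted p = 0.00567, edgeR). When all 9 libraries shared 1 fit, Ing3 did not pass (0.53, adjusted p = 0.158, edgeR). Chd1, a chromatin remodeller that binds H3K4me3, rose by 0.37 ± 0.09 in the same comparison (adjusted p = 0.0194, edgeR). The Chd1 call was lost without 24 h replicate 1 (0.32, adjusted p = 0.0804, edgeR), without 48 h replicate 1 (0.34, adjusted p = 0.0711, edgeR) and without 48 h replicate 3 (0.35, adjusted p = 0.0618, edgeR), with the offsets, at 0.15 (adjusted p = 0.165, edgeR), and with all 9 libraries in 1 fit, at 0.38 (adjusted p = 0.49, edgeR).

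Over the 9 libraries the genes whose log2 CPM followed Setd1b most closely were Zmiz2, Lrp1 and Fgd1, with Pearson's r of 0.988, 0.987 and 0.984 among 10357 genes. Those closest to Kdm5a, whose own change did not pass, were Cdc42bpa, Dennd4c and Vps13c, with r of 0.997, 0.997 and 0.996. The GC content was 57.9 to 59.1% in the first group and 44.3 to 46.1% in the second, close to that of Setd1b and Kdm5a in turn. The points share their libraries and the differences between times, and the correlations are descriptions. Among the members themselves, the lowest r over the same libraries was -0.90, for Setd1b and Kdm1a, and the highest was 0.86, for Setd1b and Kdm5b. Kmt2b and Setd1a had r = 0.83.

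The cell type labels were checked against marker genes. The 5 general germ cell markers summed to 1270 to 2290 CPM at 0 h and 1440 to 1770 later. The 8 markers of undifferentiated spermatogonia summed to 2120 to 2440 CPM at 0 h, 800.0 to 883.0 at 24 h and 597.0 to 690.0 at 48 h. Of these 8, 1 passed as higher and 5 as lower at 24 h against 0 h, and 0 as higher and 7 as lower at 48 h. Sall4 went against the sum, from 205.0 to 226.0 CPM at 0 h to 285.0 to 333.0 at 24 h. The 5 markers of differentiating spermatogonia summed to 392.0 to 447.0, then 2020 to 2120 and 1290 to 1350. Of these 5, 3 passed as higher and 0 as lower at each time against 0 h, and Sohlh2 and Dmrtb1 did not rise at 24 h. Markers of other cells moved with time as well. The 7 fibroblast and stroma markers summed to 310.0 to 397.0 CPM at 0 h, 2110 to 2440 at 24 h and 2830 to 3120 at 48 h, and 4 of the 7 passed in the higher direction and 1 in the lower at each time against 0 h. The rise of the sum lay largely in the collagen genes Col1a1, Col1a2 and Col3a1, with Col1a1 at 128.0 to 181.0 CPM at 0 h and 1010 to 1230 at 24 h. Dcn and Lum overlapped their 0 h ranges at 24 h. Thy1 was lower, at 40.1 to 53.3 CPM at 0 h and 15.9 to 26.7 later.

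The 5 peritubular myoid markers summed to 13.2 to 15.4 CPM at 0 h, 144.0 to 204.0 at 24 h and 256.0 to 315.0 at 48 h, and 4 of the 5 passed as higher at each time against 0 h. The 7 Sertoli markers summed to 16.8 to 21.2, 35.6 to 49.6 and 44.9 to 48.7 CPM, and the 5 Leydig markers to 4.38 to 6.79, 24.6 to 38.5 and 25.2 to 32.5. The Sertoli marker Fshr and the Leydig markers Insl3 and Hsd3b1 were at 0 counts in all 3 libraries at 0 h. Of 6 Sertoli markers tested, 4 passed as higher and 2 as lower at 24 h, and 4 as higher and 0 as lower at 48 h, while of 3 Leydig markers tested 2 and 3 passed as higher. Macrophage markers (4 genes) summed to 15.5 to 17.3, 5.72 to 9.52 and 5.49 to 7.49 CPM and endothelial markers (4 genes) to 43.3 to 47.2, 14.4 to 18.7 and 12.2 to 12.8. Of 2 macrophage markers tested, 1 passed as higher and 1 as lower at 24 h and 1 as lower at 48 h, and the fall of the sum lay in Cd68, at 15.0 to 16.4 CPM at 0 h and 4.49 to 7.47 later. Of 4 endothelial markers tested, 1 passed as higher and 2 as lower at each time against 0 h. The part of other cells in the changes of the H3K4 enzymes was not tested.

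**Figure D5:**
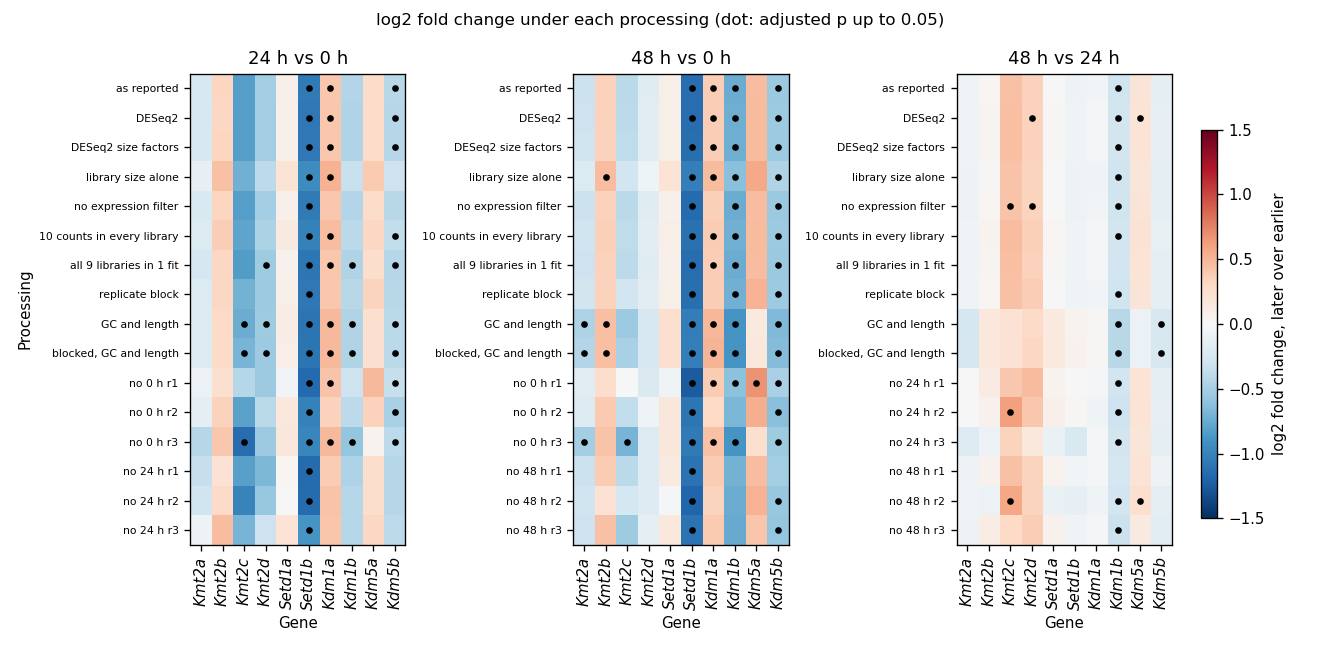
log2 fold changes of the 10 genes (columns) under each processing (rows) in the 3 comparisons, with colour for the value and a dot where the adjusted p was up to 0.05. Setd1b carries a dot in every row of both comparisons against 0 h, whereas the dots of Kdm1a and Kdm5b at 24 h go when a 24 h library is left out.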

How the data were processed

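Total RNA was enriched for poly(A) RNA, fragmented and sequenced by the authors. The authors deposited raw counts of reads per gene, 1 file per library, and per the labels their processing notes name fastp, HISAT2, featureCounts and GRCm38, with no versions, and strand use is not given in the sources used here. Library totals ran from 16825251 to 22201892 counts, and members had 243 to 12877 counts. Of 46078 identifiers, 45229 were in GENCODE M21 (GRCm38), which gave names, lengths and GC content.

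In each comparison the 6 libraries concerned were filtered (filterByExpr), scaled (TMM) and fitted with edgeR 4.0.16 under R 4.3.3. Its quasi-likelihood F test was two-sided, and p-values were adjusted over all genes tested by Benjamini-Hochberg and read at 0.05. DESeq2 1.42.0, other scalings and filters, 1 fit of all 9 libraries, GC content (5 df) and length (4 df) spline offsets, a replicate block and leaving out each library were alternatives. CPM per kilobase used the union of exons. The tests were tested on simulated data. Replicates differed beyond sampling noise (chi-square per degree of freedom 7.13 to 81.4).

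All 10 members were named. From the H3K4 list, up to 3 largest rises and 3 largest falls that passed in each comparison were named, plus Kdm5c and Kdm5d as single members of their group and Wdr5 of the core. The 3 genes most like the members of largest positive (Kdm5a, which did not pass) and negative (Setd1b) log2 fold change at 48 h against 0 h were named by Pearson's r among genes with a mean of at least 10 CPM. Members and lists were chosen with earlier results of these data known.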

Additional observations from a re-analysis of the deposited data

Results flagged for a closer look

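The difference between the 24 h and the 48 h effect, each relative to 0 h, was itself tested as 48 h against 24 h. The test was that of edgeR, with Benjamini-Hochberg over all genes and 3 libraries per time. Of the named genes 8 passed, where 21.3% of all genes tested passed. Hmg20b, Zmym3, Ing2, Kdm6a, Ing3 and Chd1 met the naming rule by passing here, so their passing adds no support. Of the H3K4 list 11 genes passed, not all of them named. Kdm1b was lower at 48 h by -0.30 on the log2 scale (adjusted p = 0.00709), as were Hmg20b by -0.63 (adjusted p = 0.00161), Zmym3 by -0.61 (adjusted p = 0.000495), Ing2 by -0.47 (adjusted p = 0.0109) and Wdr5 by -0.22 (adjusted p = 0.0278). Kdm6a was higher at 48 h by 0.48 (adjusted p = 0.0123), Ing3 by 0.51 (adjusted p = 0.00567) and Chd1 by 0.37 (adjusted p = 0.0194). In each of the 8 genes the 3 libraries at 24 h and the 3 at 48 h did not overlap, beside 39.6% of all genes. The 8 genes stand here because they passed this test, so the lack of overlap adds no support. With all 9 libraries in 1 fit, 6 of these calls were lost, those of Kdm1b, Hmg20b, Wdr5, Kdm6a, Ing3 and Chd1 (edgeR, adjusted p from 0.0598 to 0.49), and those of Zmym3 and Ing2 were not.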

How the results depend on the processing

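Setd1b against 0 h kept its call in all 15 alternatives at both times. The number of the 10 members that passed at 24 h against 0 h was 1 without the expression filter and with the replicate block, 5 with all 9 libraries in 1 fit, 6 with the GC and length offsets with or without the block, and 1 to 5 when 1 library was left out. At 48 h against 0 h it was 1 to 6 with 1 library left out. Between 24 h and 48 h it was 3 with DESeq2 and without the filter, 0 with all 9 libraries in 1 fit (0 also at an unadjusted p under 0.05), 2 with the offsets with or without the block, and 0 to 3 with 1 library left out. The H3K4 list gave 12 and 10 genes with the offsets without and with the block at 24 h, 15 with both at 48 h and 5 to 10 with 1 library left out, and between 24 h and 48 h 2 in the 9-library fit, 7 with offsets and block and 6 to 14 with 1 library left out. Over all genes 2607 to 6023, 3471 to 7116 and 1857 to 4356 passed in the 3 comparisons with 1 library left out, and 1043 between 24 h and 48 h in the 9-library fit. With the offsets and no block, 6369, 7651 and 3833 of all genes passed in the 3 comparisons.

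The values that changed sign in at least 1 alternative lay near 0 or spread widely, and their ranges with 1 library left out follow on the log2 scale. At 24 h against 0 h these were -0.04 to 0.21 for Setd1a, -0.05 to 0.46 for Kdm5d, -0.12 to 0.29 for Ing3 and -0.12 to 0.05 for Wdr5, which also turned to 0.06 by library size alone and to 0.03 with the offsets without and with the block. At 48 h against 0 h they were -0.70 to 0.0 for Kmt2c, -0.05 to 0.17 for Setd1a and -0.15 to 0.37 for Kdm5d, which also turned to -0.09 and -0.07 with the GC and length offsets without and with the block. From 24 h to 48 h they were -0.20 to 0.01 for Kmt2a, -0.09 to 0.12 for Kmt2b, -0.10 to 0.08 for Setd1a (0.0 by library size alone), -0.23 to 0.02 for Setd1b and -0.15 to 0.0 for Kdm5d. With the offsets, without and with the block, Setd1b turned to 0.05 and 0.06, Kdm1a to 0.02 in both and Kdm5a to -0.09 in both. Of the pair ratios, Kmt2a to Kmt2b ran from -0.19 to 0.04 from 24 h to 48 h, and Kmt2c to Kmt2d from -0.57 to 0.23, -0.50 to 0.30 and -0.09 to 0.24 in the 3 comparisons, with -0.07 from 24 h to 48 h under the offsets. In the order of levels 4, 4 and 6 genes kept their place with the longest transcript, and at 0 h 3 to 8 with 1 library left out. The cause of these changes was not tested.

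Same-numbered replicates did not deviate together (r from -0.28 to 0.196), so the block rests on a shared number alone. It left Kdm1a short of the threshold at both times against 0 h, Kdm5b, Kdm6a and Hmg20b at 24 h, and Chd1 and Wdr5 between 24 h and 48 h. With scaling by library size the median over all genes sat at 0.1183 (24 h) and 0.1265 (48 h) against 0 h on the log2 scale. Genes called higher and lower then numbered 2742 and 2060 at 24 h, beside 2002 and 2492 as reported, and 3045 and 2720 at 48 h, beside 2310 and 3292. The median log2 difference between genes above 54.49% GC and genes below 45.1% GC ran from -0.528 to 0.713 over the 0 h libraries, wider than at 24 h (0.049 to 0.248) and 48 h (-0.375 to 0.002).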
